A study of Homo sapiens with 6 samples.

Results

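Long noncoding RNA (lncRNA) genes make RNA that is not translated into a known protein. The 150 that took the most sequencing counts in control CAL27 cells are described here, with their response to extra RBM24. CAL27 is an established cell line from a human squamous carcinoma of the tongue. The genes were chosen from their control levels: among the 8903 lncRNA genes of the deposited count table, GAS5 and the SNHG genes were set aside (26 genes in all), and the 150 with the highest mean counts per 1000000 (CPM) in the 3 control libraries were kept. They are 150 of 32353 genes in the table, and all 150 passed the filter on low counts that left 17887 genes to test. The tested cells overexpressed RBM24 (3 libraries), and their controls carried a control plasmid (3 libraries). The labels give no time after transfection, no vector or promoter for RBM24 and no word on whether replicates came from separate cultures. The p-values therefore speak only of the spread among these 6 libraries, part of which may be technical.

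LncRNAs work in different places in the cell. Some stay in the nucleus and build bodies or act on chromatin, some act in the cytoplasm on proteins and messenger RNAs, and some are hosts from which microRNAs or small nucleolar RNAs are cut. RBM24 binds RNA, is studied chiefly for its control of splicing in striated muscle and heart, and is known to prefer stretches rich in G and U. In squamous cells, UCA1, MIR205HG and NEAT1 are among the lncRNAs most often described.

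The libraries held between 53558773 and 68804210 gene counts. RBM24 itself had 125, 109 and 124 CPM in the RBM24 libraries, against 2.35, 2.96 and 3.50 CPM in the control libraries. Its groups did not overlap, and the log2 fold change was 5.34 ± 0.10 (SE, edgeR adjusted p = 2.16e-15). Control library 1 stood apart from the other 5 along the leading principal component, at 33.4 where the others lay between -15.4 and 4.95. It also held more small structured RNA, at 0.0438% of its counts where the others held 0.00618% to 0.00818%. This share covers genes typed as small RNA, among them RNA of the signal recognition particle. It leaves out RPPH1, the RNA of RNase P, and RMRP, which the deposited table types as lncRNA. Of the squamous markers, KRT5, KRT6A, TP63, DSG3, SFN, COL17A1 and LAMB3 lay above 10 CPM and KRT14 at 4.37 ± 0.60 CPM with RBM24 and 4.16 ± 0.61 CPM in controls (SD, n = 3 each). The immune, fibroblast, endothelial and muscle marker lists each summed to at most 22.0 CPM in any library. PTPRC, CD3E, DCN, KDR and MYOD1 did not pass the filter, but other genes of each list did. The highest was CD14, an immune marker, at 18.29 CPM with RBM24 and 19.05 CPM in controls (means). CD14, COL1A1 of the fibroblast list and CDH5 of the endothelial list had higher means than KRT14 in both groups, so these lists were low but not absent.

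In the plain CPM that chose the members (count over library total), control means ran from 1057 for NEAT1 to 11.9, with a median of 21.1. Only 11 members exceeded 100 CPM and 71 lay under 20 CPM. Together the members took 0.669% to 0.719% of a library's counts and a median of 51.9% of its lncRNA counts. NEAT1 alone held 13.2% to 16.1% of the members' counts, and the 12 highest held 49.5% to 50.7%. Everywhere below, CPM are scaled with TMM factors of the libraries, which lie between 0.976 and 1.02.

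**Figure D1:**
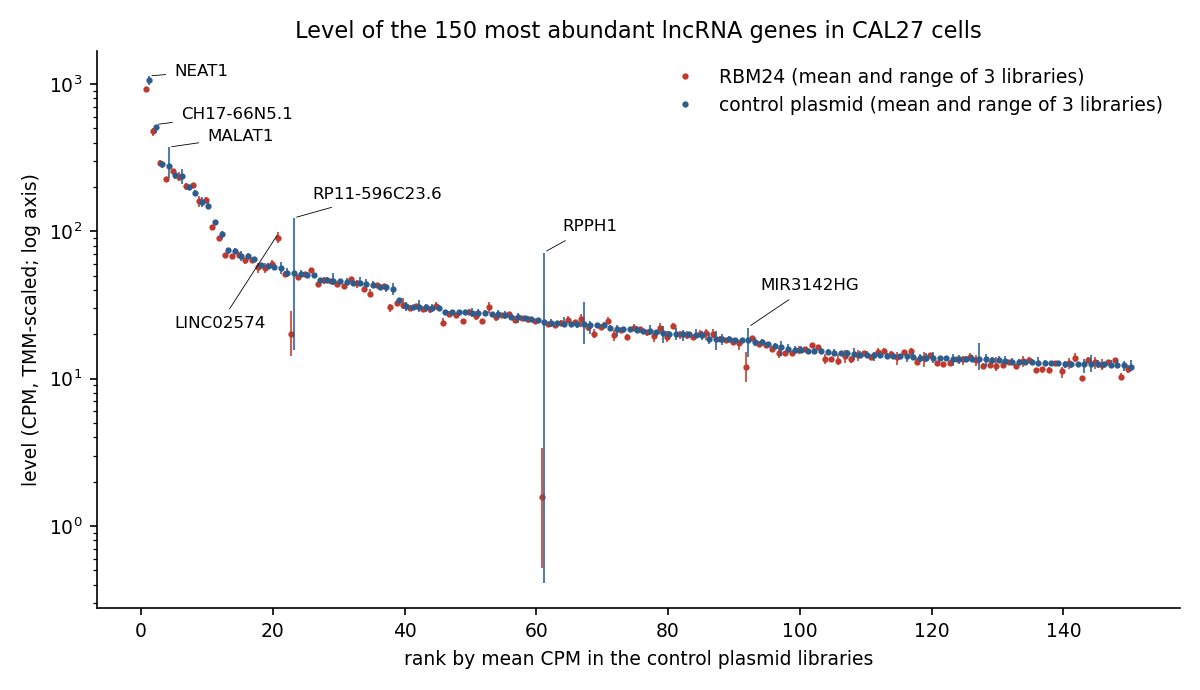
Level of each of the 150 members in CPM (log axis) against its rank by control level, with the mean and the range of the 3 RBM24 libraries (red) and of the 3 control plasmid libraries (blue). The fall is steepest over the first 12 genes and goes on more slowly to the last, and RPPH1, RP11-596C23.6 and MALAT1 have wide control ranges.

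The order by counts is not the order by length-scaled level. In FPKM, which divides by gene length, CH17-66N5.1 led with 1488 in controls, followed by RP11-793H13.8 at 140.0 and SLC1A2-AS1 at 136. NEAT1 stood at 42.9 and was the 14th of all lncRNA genes with an FPKM, GAS5 and the SNHG genes included. CH17-66N5.1 is annotated with 312 exonic bases. RP11-793H13.8 shares 69.8% of its exonic bases with PCBP2, and RP11-197N18.2 shares 55.2% with OGFOD2. Where exons are shared, the counts depend on how reads were divided between the genes, which the sources do not give. Across the 150 members, log10 CPM and log10 FPKM had a Pearson correlation of 0.60, as a description across genes of the same libraries.

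**Figure D2:**
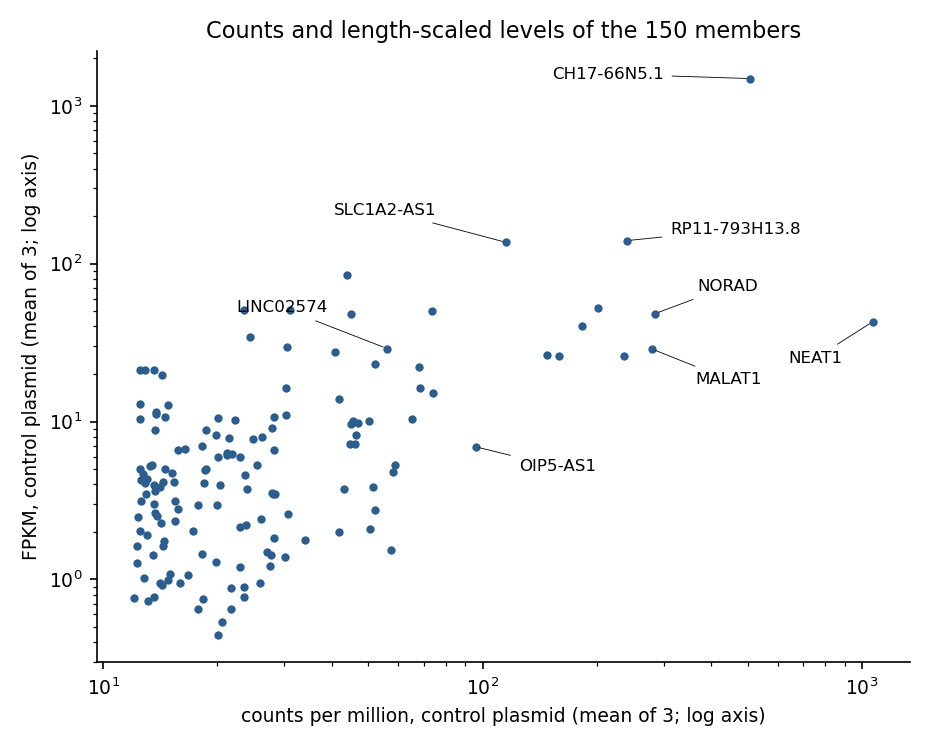
Mean control level of the 150 members in CPM (x, log axis) and in FPKM (y, log axis), 1 point per gene. CH17-66N5.1 sits far above the rest in FPKM at 1488, and NEAT1, the highest in CPM, is at 42.9 FPKM.

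Of the members, 146 could be placed in GENCODE 29 on GRCh38, 86 of them with the same symbol. By exon overlap, 26 shared same-strand exons with a gene that had more counts, 22 others overlapped such a gene only on the opposite strand, and 43 overlapped no other counted gene. By name, 51 carried clone names, 38 were antisense genes (AS), 14 had LINC numbers, 9 were microRNA hosts and 7 were divergent genes (DT). The start of 34 members lay within 2000 bases of a protein-coding start on the opposite strand, and 7 held a small nucleolar RNA gene.

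LINC02574 was the member that rose and CTD-3128G10.7 the member that fell; no other member passed an adjusted p of 0.05. Over all genes, 275 of 17887 were called (1.54%), 0.855% higher and 0.682% lower, so 2 calls among 150 members are near that background. Among 8751 protein-coding genes in the members' range of levels 2.07% were called, and among the 2837 other tested lncRNA genes 0.388%, where most levels are lower and the median SE of the log2 change is 0.25 rather than 0.07. Because members were chosen by high control values, their comparison with controls is not independent of the choice, and the counts are a description. With members chosen by the RBM24 libraries instead, 142 were the same and the median log2 change was -0.016, beside -0.024 as chosen.

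The members moved little. Of them, 140 (93.3%) had a log2 change within 0.2 of 0, against 78.4% of all tested genes and 95.7% of the protein-coding genes at like levels. The median log2 change was -0.024, beside -0.0037 for all tested genes, with 96 members below 0 and 54 above. With library totals alone the members' median was 0.0052, so its sign depends on the scaling. At an unadjusted p under 0.05 there were 24 members (16%) and 13% of all genes. Libraries of the groups did not overlap for 36 members, 13 higher and 23 lower, where 18.1% of all tested genes did not overlap (9.53% higher and 8.62% lower). With library totals alone in place of TMM scaling the split was 20 higher and 11 lower among members and 2291 higher and 950 lower among all genes, beside 1704 and 1542 with TMM, so the direction of this split depends on the scaling. Control library 1 held the highest value of 47 members (31.3%), beside 23.2% of all genes.

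**Figure D3:**
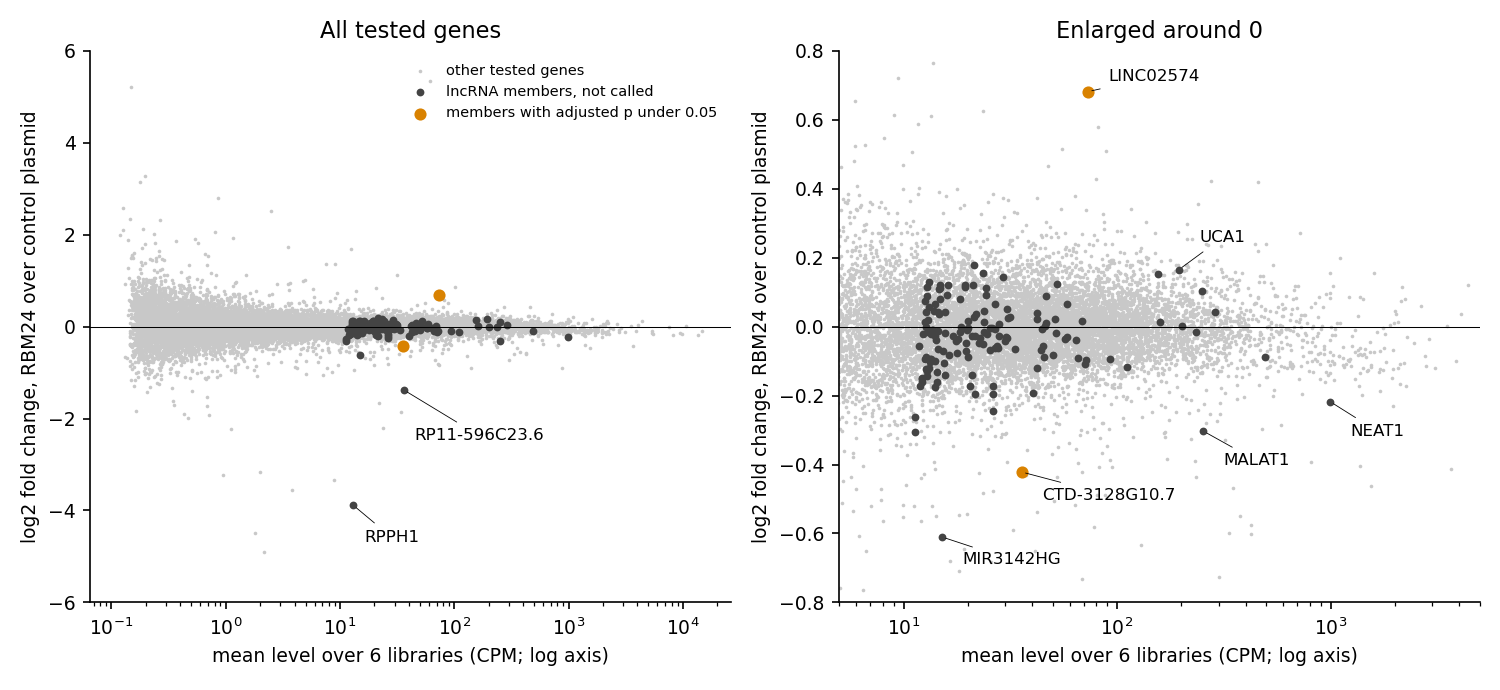
Log2 fold change, RBM24 over control plasmid, against mean level over the 6 libraries (log axis), for all tested genes (grey), the uncalled members (dark) and the members with adjusted p under 0.05 (orange), with an enlarged view on the right. Of the members, 140 lie within 0.2 of 0, and LINC02574 at 0.68 and CTD-3128G10.7 at -0.42 are the called ones.

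LINC02574, a spliced lncRNA on chromosome 1 (chr1:27660328-27662722, minus strand, GRCh38), had 83.9, 85.9 and 99.5 CPM in the RBM24 libraries, against 54.4, 62.3 and 51.4 CPM in the control libraries. The RBM24 libraries were the 3 highest. The log2 change was 0.68 ± 0.07 (SE; adjusted p = 9.45e-05), and it was called in 18 of 19 alternative fits. In GENCODE 29, which need not be the annotation the authors counted on, LINC02574 has 441 exonic bases and overlaps no other counted gene in its exons. The gene IFI6, an interferon-stimulated gene whose protein resists cell death and viral replication, ends 3338 bases upstream of its start on the same strand. IFI6, named after its values were seen, had 91.9, 105 and 116 CPM with RBM24, against 76.4, 75.6 and 67.6 CPM in controls. Its groups did not overlap either (log2 change 0.51 ± 0.07, adjusted p = 0.00131, called in 16 of 19 alternatives).

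The start regions of the neighbours are shown because the pair rose together, from 250 bases before to 50 bases after each RefSeq start (GRCh38.p14, minus strand). Capitals mark matches to the core of the interferon-stimulated response element, spelled as GAAA, any 2 bases and GAAA and searched on both strands.
IFI6, chr1:27672143-27672442: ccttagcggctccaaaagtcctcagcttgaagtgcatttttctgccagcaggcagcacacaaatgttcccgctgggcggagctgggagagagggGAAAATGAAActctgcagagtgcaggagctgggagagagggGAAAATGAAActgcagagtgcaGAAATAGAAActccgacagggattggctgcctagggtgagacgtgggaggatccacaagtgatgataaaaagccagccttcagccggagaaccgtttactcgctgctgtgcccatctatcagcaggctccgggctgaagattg
LINC02574, chr1:27662673-27662972: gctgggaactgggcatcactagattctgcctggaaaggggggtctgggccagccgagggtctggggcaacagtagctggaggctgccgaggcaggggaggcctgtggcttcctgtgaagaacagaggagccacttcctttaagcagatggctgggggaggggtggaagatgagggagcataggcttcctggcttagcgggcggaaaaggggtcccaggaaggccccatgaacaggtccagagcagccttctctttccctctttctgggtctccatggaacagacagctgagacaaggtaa
The IFI6 window holds 3 matches, which begin 156, 115 and 93 bases before the start, and the LINC02574 window holds 0. The pattern is in 3.57% of 35116 RefSeq promoter windows of this length and in 2 of the 72 members with a window (2.78%), PSMB8-AS1 and MIR222HG. A match is a description of letters and shows no binding.

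CTD-3128G10.7 lies inside an intron of C3, a complement component gene, on the same strand (chr19:6716386-6717742, minus strand), and GENCODE 29 types it as sense intronic. It had 28.2, 31.4 and 31.9 CPM with RBM24, against 44.8, 40.7 and 37.1 CPM in controls. All RBM24 libraries lay below all control libraries (log2 change -0.42 ± 0.07, adjusted p = 0.00665), and the call held in 16 of 19 alternative fits. C3 itself was at 973 ± 7.82 CPM with RBM24 and 1023 ± 9.35 CPM in controls (SD, n = 3 each), a log2 change of -0.07 with adjusted p = 0.599. The counts do not tell an independent transcript from unspliced C3 RNA.

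IGFL2-AS1 lies outside the set only because the set was chosen on control levels. It is an antisense lncRNA on chromosome 19 that would be a member by the mean of all 6 libraries, and it had 16.2, 15.3 and 17.1 CPM with RBM24, against 11.3, 11.4 and 9.22 CPM in controls. Its groups did not overlap (log2 change 0.61 ± 0.09, adjusted p = 0.00126, called in 18 of 19 alternatives). It was named after its values were seen. At the limit itself, NIPBL-DT, PAXIP1-AS2 and RP11-37B2.1 were the last members at 12.2, 12.2 and 11.9 plain CPM in controls, and BISPR, CTD-2396E7.11 and DLEU2 the nearest outside at 11.9, 11.9 and 11.8 plain CPM.

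**Figure D4:**
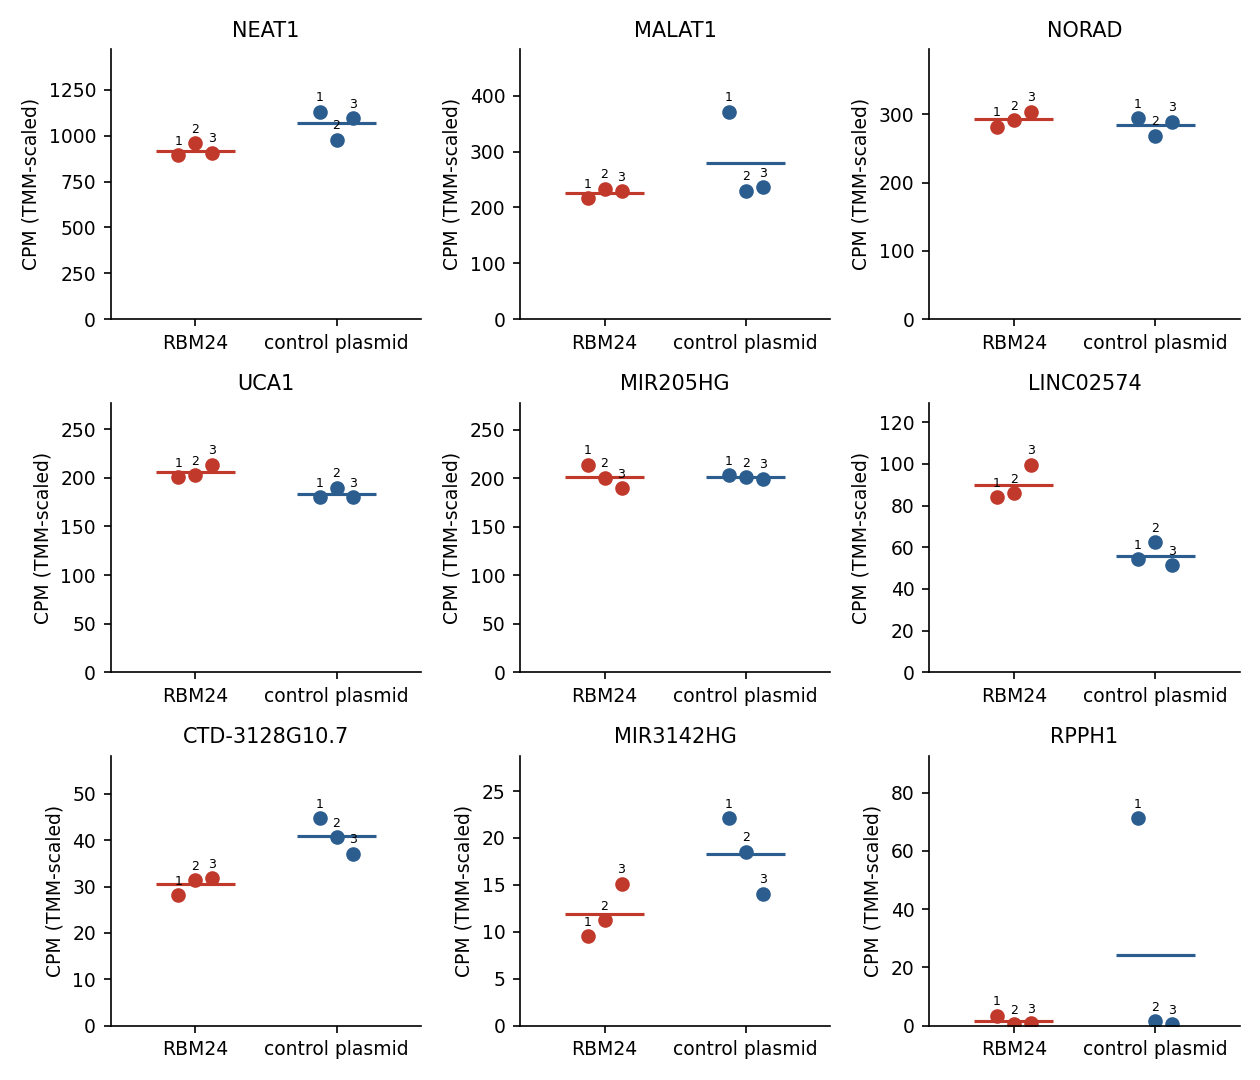
CPM of 9 members in each RBM24 library (red, left) and each control plasmid library (blue, right), with the replicate number above each point and a line at the mean of 3. LINC02574 and CTD-3128G10.7 separate by group, and control library 1 is the high point of MALAT1 and RPPH1.

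Among nuclear lncRNAs, NEAT1, the scaffold of paraspeckles, had 892, 958 and 906 CPM in RBM24 libraries, against 1132, 978 and 1096 CPM in control libraries. The RBM24 libraries all lay below the controls, and the change did not pass (log2 change -0.22 ± 0.06, adjusted p = 0.108). It passed in 3 of 19 alternatives, among them DESeq2 (adjusted p = 0.0155), which called 2.08% of all genes. MALAT1, a nuclear speckle RNA, had 217, 234 and 229 CPM with RBM24, against 372, 230 and 236 CPM in controls, where control 1 alone was high. Its log2 change of -0.30 ± 0.12 did not pass (adjusted p = 0.302) and was -0.04 without control 1. FTX and JPX, which act in the inactivation of an X chromosome, changed by -0.07 and -0.06 on the log2 scale, and PVT1, a neighbour of MYC, had 25.9 CPM in either group. TUG1, a lncRNA known for its work with chromatin repressors, is no member because the deposited table types it as protein-coding. It had 169 ± 6.28 CPM with RBM24 and 166 ± 8.32 CPM in controls (SD, n = 3 each), and its log2 change of 0.02 ± 0.05 did not pass (adjusted p = 0.915). KCNQ1OT1, FIRRE, HOTAIR and LINC-PINT, which are lower and no members, did not pass either, so 0 of 10 tested genes of this list were called (median -0.07).

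Genes of the proteins these RNAs assemble with were not called at the RNA level, and protein was not measured. Of 14 paraspeckle proteins and 12 nuclear speckle proteins, 0 passed in either direction, with medians of 0.02 and 0.01 on the log2 scale. The share called over all tested genes was 1.54%, so 0 calls in this or any other short list named here are near that background. The smallest p among the paraspeckle proteins was that of CPSF7, a cleavage factor (0.09 ± 0.05, adjusted p = 0.438). Among speckle proteins it was that of RNPS1, a splicing cofactor (0.17 ± 0.05, adjusted p = 0.129).

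Among lncRNAs that act in the cytoplasm, NORAD, which is known for its part in keeping chromosomes stable, had 282, 292 and 304 CPM with RBM24, against 294, 269 and 289 CPM in controls, with overlapping groups (log2 change 0.04 ± 0.05, adjusted p = 0.797). ZFAS1, a snoRNA host, OIP5-AS1, EPB41L4A-AS1, DANCR and CYTOR changed by -0.09 to 0.15 on the log2 scale, and 0 of 12 tested genes of the list were called. ZFAS1 and DANCR changed sign in some alternatives.

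Of the lncRNAs known from squamous and other epithelial carcinomas, UCA1 had 200.3, 203 and 213 CPM with RBM24, against 180.1, 189.9 and 179.7 CPM in controls. Every RBM24 library lay above every control, and the change did not pass (log2 change 0.16 ± 0.05, adjusted p = 0.126). MIR205HG had 214, 201 and 190 CPM with RBM24, against 204, 201 and 200 CPM in controls, with overlapping groups (log2 change 0.001 ± 0.052). CYTOR, LINC01503, LINC00857, AFAP1-AS1 and MIR4435-2HG changed by -0.08 to 0.15. Of 19 tested genes, 0 were called (median 0.07). Among squamous marker genes SFN, a checkpoint adapter protein, came nearest to passing (log2 change 0.24 ± 0.06, adjusted p = 0.0509), and 0 of 8 were called.

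Among the microRNA hosts, MIR3142HG on chromosome 5 holds MIR146A and MIR3142, and miR-146a is known as a brake on NF-kB signalling. It had 9.51, 11.2 and 15.1 CPM with RBM24, against 22.1, 18.5 and 14.1 CPM in controls, where RBM24 library 3 lay above control library 3. The log2 change of -0.61 ± 0.15 did not pass (adjusted p = 0.0565), and passed in 5 of 19 alternatives. Without control library 1, where MIR3142HG was highest, the change was -0.45 (adjusted p = 0.190). The window of its RefSeq start shows 1 match, in capitals, to an NF-kB pattern spelled as GGGA, any base and TTTCC and searched on both strands. The patterns were searched separately and do not overlap here.
MIR3142HG, chr5:160468001-160468300, plus strand: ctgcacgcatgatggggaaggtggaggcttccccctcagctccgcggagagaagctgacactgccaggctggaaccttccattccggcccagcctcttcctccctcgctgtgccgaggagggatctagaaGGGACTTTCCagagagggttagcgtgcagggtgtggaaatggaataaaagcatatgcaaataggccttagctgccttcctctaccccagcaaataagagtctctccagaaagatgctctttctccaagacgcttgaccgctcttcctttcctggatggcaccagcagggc
The match begins 120 bases before that start, which lies inside the longer GENCODE 29 span that opens at 160438594. The pattern is in 0.558% of the 35116 windows, and MIR3142HG is the one of 72 member windows that has it.

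The other 8 hosts changed by between -0.17 and 0.07 on the log2 scale, and 0 of the 9 were called. MIR222HG had 24.7, 24.5 and 24.9 CPM with RBM24, against 29.2, 27.5 and 26.8 CPM in controls, with separate groups (log2 change -0.17 ± 0.06, adjusted p = 0.206). Mature microRNAs were not measured, since gene-level counts of long RNA do not hold them. Their sequences from RefSeq (GRCh38.p14) are given with the seed, bases 2 to 8, in capitals, to show which of them share a seed. Each is listed under the host that is named for it or its cluster.
miR-205-5p of MIR205HG: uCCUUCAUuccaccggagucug
miR-146a-5p of MIR3142HG: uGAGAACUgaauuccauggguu
miR-3142 of MIR3142HG: aAGGCCUUucugaaccuucaga
miR-221-3p of MIR222HG: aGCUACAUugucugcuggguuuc
miR-222-3p of MIR222HG: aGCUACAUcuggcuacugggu
miR-23a-3p of MIR23AHG: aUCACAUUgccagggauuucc
miR-27a-3p of MIR23AHG: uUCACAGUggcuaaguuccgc
miR-24-3p of MIR23AHG: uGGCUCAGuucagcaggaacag
miR-22-3p of MIR22HG: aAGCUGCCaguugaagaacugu
miR-210-3p of MIR210HG: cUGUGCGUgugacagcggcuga
let-7a-5p of MIRLET7A1HG: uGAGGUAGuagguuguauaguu
let-7b-5p of MIRLET7BHG: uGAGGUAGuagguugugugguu
The seed of miR-221 and miR-222 is shared, and so is that of the let-7 RNAs listed under MIRLET7A1HG and MIRLET7BHG. Those 2 genes changed by 0.04 and -0.03 on the log2 scale. The authors' gene model may differ, but in GENCODE 29 MIRLET7A1HG is a host by name only. Its GENCODE 29 span (chr9:94176458-94177892, plus strand) holds 0 microRNA genes, and let-7a-5p lies before it at 94175962-94175983.

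Among 12 tested lncRNAs of a list of stress-responsive genes, NMRAL2P, an NRF2-regulated pseudogene and no member, rose (4.39 ± 0.19 CPM with RBM24 and 3.10 ± 0.31 CPM in controls, SD, n = 3 each; log2 change 0.50 ± 0.11, adjusted p = 0.0236). It was called in 11 of 19 alternatives, and not without control library 1 (adjusted p = 0.0760). GABPB1-AS1, MIR210HG and MIR22HG, its members beside MIR3142HG, changed by -0.12 to 0.07. Of 7 tested p53-responsive lncRNAs, 0 were called.

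Some members were high in control library 1 alone. RPPH1, the RNA of RNase P, had 3.39, 0.518 and 0.812 CPM with RBM24, against 71.3, 1.56 and 0.413 CPM in controls. The control mean, and so its place among the 150, rests on control library 1. Its log2 change was -3.88 ± 1.15 (adjusted p = 0.120), and 0.77 without that library. RP11-596C23.6, whose span holds RN7SL2 on the same strand, had 28.6, 16.8 and 14.3 CPM with RBM24, against 122.6, 18.0 and 15.6 CPM in controls. Whether the exons of RP11-596C23.6 overlap RN7SL2 was not tested. The log2 change of RP11-596C23.6, -1.37 ± 0.53 (adjusted p = 0.271), became 0.26 without control library 1. RN7SL1, RN7SL3 and RMRP, named after their values were seen, were also highest in that library, at 133, 10.3 and 20.4 CPM.

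**Figure D5:**
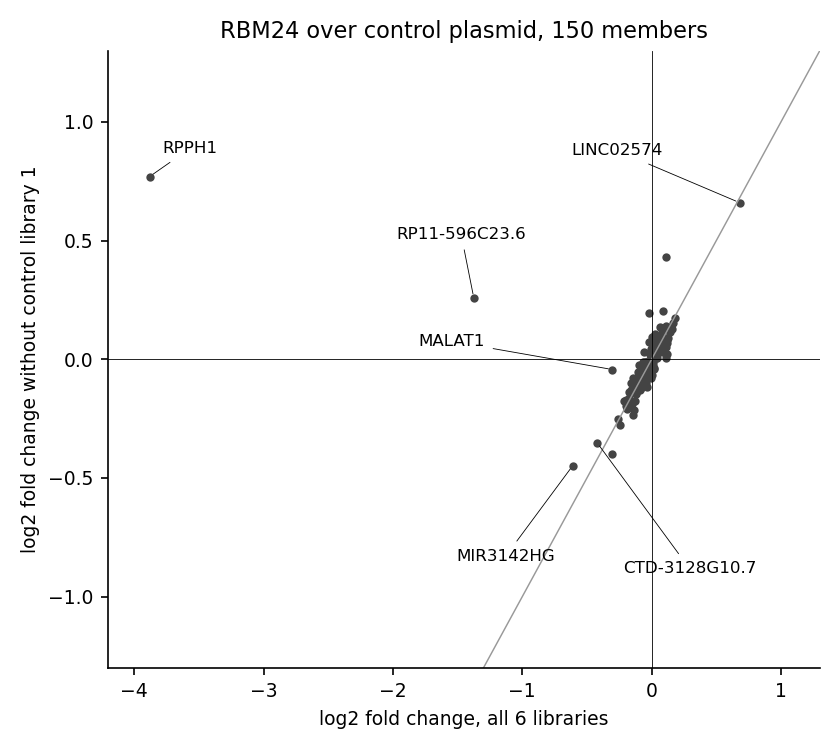
Log2 fold change of the 150 members, RBM24 over control plasmid, with all 6 libraries (x) and without control library 1 (y), with the line of equal values. RPPH1 is at -3.88 and 0.77, RP11-596C23.6 at -1.37 and 0.26, and most points lie near the line.

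Of 46 members whose symbol names a partner, 42 had a tested partner. The pairs had the same sign of change in 21 cases, with a Pearson correlation of 0.04 across pairs as a description. IRF1, the interferon regulatory factor, fell to 265 ± 11.9 CPM with RBM24, against 320.2 ± 21.8 CPM in controls (SD, n = 3 each), with a log2 change of -0.27 ± 0.06 (adjusted p = 0.0236, called in 13 of 19 alternatives). IRF1-AS1 changed by -0.20 ± 0.07 without passing (adjusted p = 0.199). PINK1, a kinase of mitochondrial quality control, rose (0.24 ± 0.05, adjusted p = 0.0304, called in 11 of 19 alternatives), while PINK1-AS changed by -0.10. PSMB8-AS1, beside an immunoproteasome gene, had separate groups at a change of -0.20 ± 0.06 (adjusted p = 0.132), and PSMB8 changed by -0.12 (adjusted p = 0.342). CTD-2587H24.14, one of the 3 largest increases, changed by 0.18 ± 0.07 (adjusted p = 0.288). Without strand information, reads from exonic bases that a gene shares with its antisense partner cannot be assigned to either. By annotation, the shared part was 42.9% of the exonic bases of PINK1-AS, 31.7% of PSMB8-AS1 and 17.6% of IRF1-AS1. It was smaller in other pairs, at 3.7% for OIP5-AS1 and 0% for SLC1A2-AS1.

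Genes of decay and processing factors that act on such RNAs were not called at the RNA level. The counts were 0 of 20 nuclear RNA decay factors, 0 of 13 nonsense-mediated decay factors and 0 of 8 microRNA processing factors. Over all tested genes 1.54% were called, so 0 calls in such short lists are near that background. The smallest p-values of 2 of these lists were those of SRRT, of the nuclear decay list, at 0.09 ± 0.05 (adjusted p = 0.439) and DGCR8, of the microRNA processing list, at 0.14 ± 0.05 (adjusted p = 0.203).

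The sum of all 150 members was 6760, 6784 and 6629 CPM in the RBM24 libraries, against 7330, 6858 and 6815 CPM in the control libraries. All RBM24 sums lay below the control sums. No test of this is given, because the members were chosen for high control levels. The difference of -277 CPM became -112 CPM without control library 1. The groups overlapped with total counts alone, at 6784, 6853 and 6735 CPM with RBM24, against 7186, 6688 and 6901 CPM in controls (difference -134.6 CPM). They also overlapped in summed FPKM, where the difference was -68.7, and without NEAT1 and CH17-66N5.1, where it was -97.5 CPM.

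The pentamer GTGTG, a GU-rich word chosen for the known binding preference of RBM24, occurred at a median of 1.14 per kilobase in the longest GENCODE 29 transcript of 146 members, 1.03 in 2643 other lncRNA genes and 1.20 in 13729 protein-coding genes. NEAT1 held 104 copies in 22743 bases (4.57 per kilobase), and LINC02574, UCA1 and CTD-3128G10.7 held 0. These counts describe the annotated sequence and not binding.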

How the data were processed

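The 6 libraries of total RNA came from CAL27 cells, 3 with RBM24 and 3 with a control plasmid; per the labels' protocols, RNA was extracted with Trizol, treated with DNase and read as 150-nt pairs. HISAT2 and GRCh38 are named in the submitters' processing notes. The HISAT2 version, the gene counter, the annotation and whether counting used strand are not given in the sources used here. In the deposited data, the count table holds the authors' raw counts per gene (32353 genes), and the deposited FPKM table holds the authors' values per length and library total (31513 genes). Deposited columns marked NC and OE_RBM24 were read as control plasmid and RBM24 libraries.

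Counts were tested in R 4.3.3 with edgeR 4.0.16: filterByExpr, TMM factors, a quasi-likelihood F test of group with 4 residual degrees of freedom, and Benjamini-Hochberg adjustment over all 17887 genes, called at 0.05. CPM divide by TMM-scaled totals except where plain CPM are named. Overlap with exons, positions and transcripts come from GENCODE 29, which need not be the authors' release; promoter and microRNA sequences come from RefSeq. The gene lists (lncRNAs by role, paraspeckle, nuclear speckle, NORAD partner, decay and microRNA factors, and squamous, muscle, fibroblast, immune and endothelial markers), the named genes and the members were chosen with earlier results of these data known, and this rule names RBM24, the 12 highest members, called members, the 3 largest changes each way, members of the lists, those at the limit, partner genes and microRNAs of hosts. Context genes (IFI6, C3, RN7SL1, RN7SL3, RMRP, IGFL2-AS1, RP5-940J5.9, RP11-20D14.6, RP11-400K9.4) and the motifs searched were chosen after values were seen. Some genes named by the rule, and some overlaps with other genes, are not reported here. Sums of CPM over the members are given per library, with no test. Same-numbered libraries did not deviate together (correlations of 0.0072, 0.056 and -0.00039), so numbers were not treated as pairs. Every pair of libraries differed beyond sampling noise (chi-square per gene of 4.50 to 33.3). Alternatives were other scalings, filters, DESeq2 1.42.0, limma 3.58.1 on log2(FPKM + 1) or log2(FPKM + 0.1), the replicate block, each library left out and other member choices. Python 3.11.15 with pandas 2.3.3 and scipy 1.17.1 made the tables.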

Additional observations from a re-analysis of the deposited data

How the results depend on the processing

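LINC02574 was called higher in 18 of 19 alternative fits and CTD-3128G10.7 lower in 16 of 19. The exception for LINC02574 was limma on log2(FPKM + 1) with no filter, and the 3 limma fits on FPKM did not call CTD-3128G10.7. Among the 150 members, the 1 higher call became 2 with members chosen by the mean CPM over all 6 libraries 2 with members chosen by the RBM24 libraries (the gene added is IGFL2-AS1; the second choice was made after seeing the data), and 0 by limma on log2(FPKM + 1) with no filter. The 1 lower call became 2 with total counts only (MIR3142HG added), 2 without the small structured RNA genes (added after seeing the data), 2 with the replicate block (RPPH1 added), 3 with DESeq2 (NEAT1 and RP11-400K9.4 added), 8 with no filter and 0 in the 3 FPKM fits; the cause was not tested. Leaving out 1 library each gave 1 to 2 higher and 1 to 3 lower members. Without control library 1, RP5-940J5.9 (log2 change 0.43) and RP11-20D14.6 (-0.40) joined the calls, as did NEAT1 and RPPH1 without control library 2, MIR3142HG and RPPH1 without control library 3, and MIR3142HG without RBM24 library 3. Over all genes, the no-filter fit called 305 higher and 341 lower, limma on log2(FPKM + 1) 46 and 4 (15 and 4 without the filter) and on log2(FPKM + 0.1) 57 and 5. Leaving out 1 library gave 61 to 171 higher and 29 to 198 lower calls. The lowest came without RBM24 library 2 and were close to those without RBM24 library 1 (70 and 31), and without control library 1 the lower calls were 69. With the replicate block they were 158 and 135. The median log2 change of the members was 0.0052 with total counts only, 0.0058 on log2(FPKM + 1) with or without a filter, and 0.0083 on log2(FPKM + 0.1), beside -0.024. Of small uncalled changes that reversed, ZFAS1 was at 0.014, PVT1 at 0.026, LINC00857 at 0.028 and GABPB1-AS1 at 0.0096 with total counts only. On log2(FPKM + 1), with and without a filter, they were at 0.019, 0.012, 0.024 and 0.012 in the same order, and on log2(FPKM + 0.1) at 0.020, 0.023, 0.028 and 0.017. At a minimum mean count of 50, PVT1 was at 0.00050 and LINC00857 at 0.0025. MIR205HG was at -0.00041 with limma-voom and -0.00052 with the replicate block. With 1 library left out, the ranges were -0.071 to 0.43 for RP5-940J5.9, -5.2 to 0.77 for RPPH1, -1.8 to 0.26 for RP11-596C23.6, -0.098 to 0.071 for ZFAS1, -0.044 to 0.042 for MIR205HG, -0.045 to 0.072 for RP11-197N18.2, -0.024 to 0.012 for PVT1, -0.073 to 0.039 for DANCR, -0.022 to 0.011 for LINC00857 and -0.055 to 0.046 for GABPB1-AS1. All members passed the count filter, the last at 11.9 CPM in controls.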
